A study of Homo sapiens with 6 samples.

Results

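The genes described here are 36 components of the endoplasmic reticulum (ER) folding machinery and the unfolded protein response (UPR), taken by gene symbol from a table of 58735 genes counted in 6 mRNA sequencing libraries of MOLM-13. All 36 symbols were found once each, and all 36 passed the filter on low counts that left 13822 genes for testing. MOLM-13 is an established human line of acute myeloid leukaemia cells. The treated cells (n = 3) received the compound 8p at 3.5 nM for 48 hours, a synthetic kinase inhibitor labelled as acting on RET and CDK8, and the control cells (n = 3) were left untreated for the same 48 hours. Both groups were wild type by label and grown in the same medium. Whether solvent was added to the controls is not stated, so effects of 8p and of its solvent cannot be told apart.

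Secreted and membrane proteins enter the ER through the SEC61 channel and are folded there by chaperones, lectins and enzymes that form disulfide bonds. Proteins that fail to fold are passed back to the cytosol and destroyed by ER-associated degradation (ERAD). When unfolded proteins build up, the sensors IRE1 (gene ERN1), ATF6 and PERK (gene EIF2AK3) start the UPR. IRE1 splices the mRNA of XBP1 into the form that encodes an active transcription factor, and together with cleaved ATF6 that factor raises the genes for chaperones, the translocon and ERAD. PERK slows translation by phosphorylating eIF2α, and PPP1R15A (GADD34) reverses this. Gene counts do not separate spliced from unspliced XBP1, and cleavage of ATF6 and phosphorylation are not seen in them.

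The promoters of several of these genes carry the sequences through which the UPR is known to act, and they are shown because the genes that bear them did not move as one. The ER stress response element (ERSE), read as CCAAT, any 9 bases and CCACG on either strand, was found in 6 of the 33 genes with a promoter in RefSeq (GRCh38.p14; 250 bases before to 50 bases after the annotated start), and in 22 of all 27305 promoters (0.0806%). Its second form, ERSE-II, read as ATTGG, any base and CCACG on either strand, was found in 3 of the 33 and in 0.0623% of all promoters. DERL1, DERL3 and PDIA3 were not matched. In the windows below, written 5′ to 3′ on the strand of the gene, capitals mark the fixed letters of ERSE in the first 6 and of ERSE-II in the last 3.
HSPA5, chr9:125241383-125241417, minus strand: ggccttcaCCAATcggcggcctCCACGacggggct
CALR, chr19:12938376-12938410, plus strand: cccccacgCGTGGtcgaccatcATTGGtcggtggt
HSP90B1, chr12:103930208-103930347, plus strand: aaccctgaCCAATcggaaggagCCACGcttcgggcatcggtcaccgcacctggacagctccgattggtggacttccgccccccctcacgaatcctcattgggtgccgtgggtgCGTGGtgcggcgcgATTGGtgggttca
PDIA6, chr2:10812845-10812879, minus strand: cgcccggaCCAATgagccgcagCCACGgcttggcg
CRELD2, chr22:49918546-49918580, plus strand: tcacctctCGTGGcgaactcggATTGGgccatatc
ERO1B, chr1:236282175-236282208, minus strand: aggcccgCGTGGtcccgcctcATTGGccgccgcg
HYOU1, chr11:119057266-119057398, minus strand: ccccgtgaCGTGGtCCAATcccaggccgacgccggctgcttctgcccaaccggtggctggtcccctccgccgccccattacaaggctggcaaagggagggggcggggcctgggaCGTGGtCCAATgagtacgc
SDF2L1, chr22:21642106-21642132, plus strand: ctcggaagCGTGGaCCAATcaaaaccc
HERPUD1, chr16:56932017-56932043, plus strand: ggacgccgATTGGgCCACGttgggaga
In the HSPA5 promoter the element lay 66 to 48 bases before the start, and HSP90B1 and HYOU1 had 2 elements each. The UPR element core, read as TGACGTGG on either strand, was found in HYOU1 and DNAJC10, against 0.762% of all promoters. In HYOU1 it overlapped the upstream ERSE-II. A match of letters is a description of the window and not evidence of binding.

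Before the results, the libraries themselves were compared. Total counts were 14972069 to 16210861 with 8p and 18834611 to 23485628 in controls, and no pair of libraries agreed within sampling noise. Mitochondrially encoded genes took 6.42% to 10.004% of counts with 8p and 1.64% to 1.91% in controls, and 8p replicate 2, the lowest of the treated libraries in that share, stood apart from the other 2 (chi-square per degree of freedom 21.4 and 21.2, against 3.03 between replicates 1 and 3). Control replicate 3 stood apart from the other controls to a lesser degree (10.07 and 10.9, against 3.92 between replicates 1 and 2). Myeloid genes marked the line in both groups, with a summed level of 5099 to 5684 CPM with 8p and 2061 to 2190.2 CPM in controls over 7 genes. LYZ was the largest part of that sum in both groups, at 3732 ± 369 CPM with 8p and 1040.2 ± 60.03 CPM in controls. While 5 of the 7 rose, CD33 and MPO fell by 0.50 and 0.64 on the log2 scale. Markers of plasma cells, which use this pathway heavily, summed to at most 0.270 CPM with 8p and 0.841 CPM in controls over 5 genes, and JCHAIN had no count. Markers of B cells summed to 1.498 to 2.29 CPM with 8p and 1.48 to 1.69 CPM in controls, with PAX5 at 0. The T and NK cell list summed to 33.0 to 44.4 CPM with 8p and 34.4 to 36.7 CPM in controls, with CD8A at 0. Within it NKG7 rose (log2 fold change 0.78, 33.96 ± 4.55 CPM with 8p and 19.8 ± 1.25 CPM in controls), while CD3D and TRAC fell by 2.64 and 1.42 on the log2 scale. The epithelial and fibroblast list summed to 31.6 to 41.8 CPM with 8p and 9.74 to 10.3 CPM in controls. Of this, COL1A1 averaged 31.8 ± 5.99 CPM with 8p and 0.542 ± 0.297 CPM in controls. KRT8 rose by 1.11 on the log2 scale, at 2.08 CPM with 8p and 0.956 CPM in controls, while KRT18 fell by 1.47. EPCAM and COL1A2 had no count. The part of these differences in the results below was not tested.

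With 8p, 7 of the 10 chaperones of the ER lumen and 4 of the 5 translocon genes were lower, while the sensor ERN1, the mannosidase-like ERAD factor EDEM1, the oxidase ERO1B and the phosphatase subunit PPP1R15A were higher. XBP1 had the largest fall of the 36 genes, to a level 11.3-fold lower than in controls, and CALR and MANF followed at 4.21-fold and 3.74-fold lower. Of the 36 genes 20 fell (55.6%) and 7 rose (19.4%) past an adjusted p of 0.05 in edgeR's quasi-likelihood test, and 9 did not pass. Over all genes tested 74.7% passed, 36.9% lower and 37.9% higher, so the share of the 36 that passed (75%) was close to the background, and the share that fell was above it. With upper quartile scaling, which moved the median of all genes up by 0.19, 17 of the 36 fell (47.2%) and 9 rose. On that scaling 30.8% of all 13822 genes tested fell and 6240 rose. The median log2 fold change was −0.36 over the 36 genes and 0.03 over all genes tested. The 3 values with 8p lay wholly below the 3 control values for 20 of the 36 genes and wholly above for 7, where 38% and 38.9% of all genes tested did so (77% in either direction). In bulk samples, fewer cells of a type and less RNA per cell cannot be told apart.

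**Figure D1:**
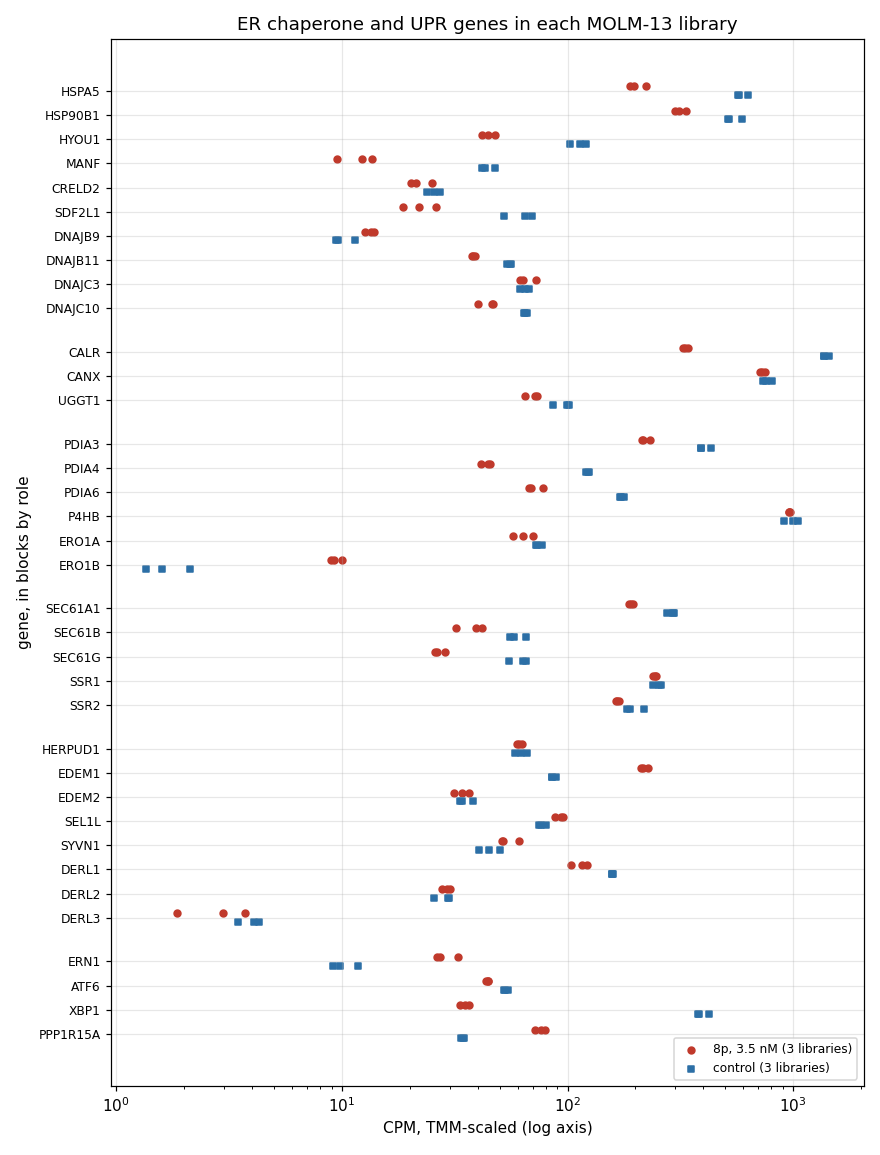
Level of each of the 36 genes in each library, in TMM-scaled CPM on a log axis, with 8p libraries (circles) drawn above control libraries (squares) and genes in blocks by role. XBP1 showed the widest gap, at 33.3 to 36.7 CPM with 8p and 379 to 424 CPM in controls, and ERO1B a wide gap the other way.

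**Figure D2:**
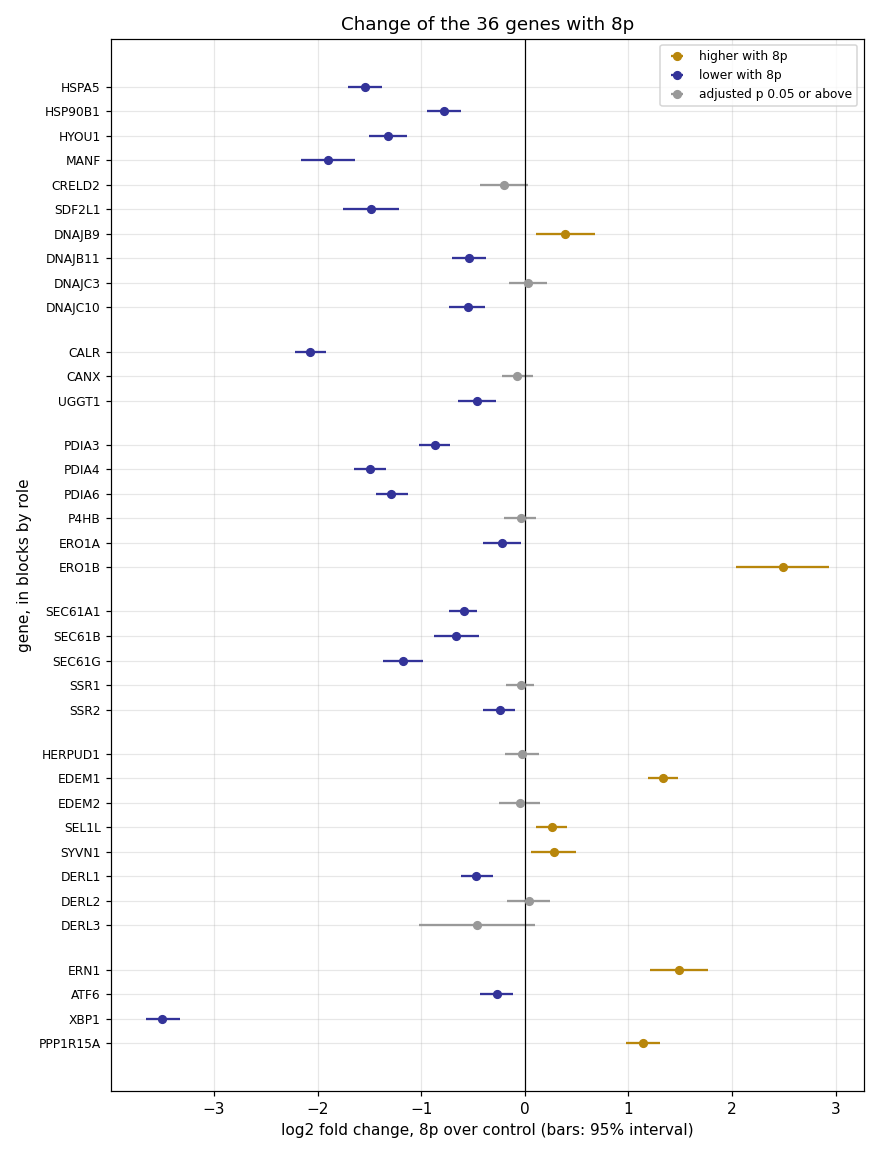
Log2 fold change of each gene, 8p over control, with its 95% interval, in the same order. Points left of 0 were lower with 8p: XBP1 (−3.50) and CALR (−2.07) lay farthest left and ERO1B (2.49) farthest right, and 9 grey points did not pass the threshold.

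Among the 10 chaperones of the lumen 7 fell and 1 rose, with a median log2 fold change of −0.66, where 36.9% of all genes tested fell and 37.9% rose. HSPA5 (BiP; ENSG00000044574, GRCh38 chromosome 9, 125234853 to 125241330, minus strand), the ER member of the HSP70 family that also holds the UPR sensors inactive, had 197, 223 and 188 CPM in the 8p libraries, against 573, 572 and 629 CPM in the controls. The groups did not overlap, with 8p replicate 2 the highest treated library, and HSPA5 fell 2.91-fold (log2 fold change −1.54, SE 0.08, adjusted p = 6.73e-11). HSP90B1 (GRP94), the ER member of the HSP90 family, fell less (log2 fold change −0.78, SE 0.08, adjusted p = 1.53e-07), with 311, 336 and 299.6 CPM in the 8p libraries, against 521, 512 and 591 CPM in the controls. The ratio of HSPA5 to HSP90B1 counts within a library, which no scaling can change, was 0.634, 0.665 and 0.628 in the 8p libraries, against 1.101, 1.12 and 1.06 in the controls, so control libraries held more HSPA5 than HSP90B1 counts and treated libraries fewer.

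MANF, a luminal and secreted factor that binds BiP, had the largest fall of this group (log2 fold change −1.90, SE 0.12, adjusted p = 1.13e-09). It measured 13.6, 9.53 and 12.3 CPM in the 8p libraries, against 43.003, 41.7 and 47.6 CPM in the controls, with 8p replicate 2 the lowest of the 6 libraries. SDF2L1, a partner of the ER HSP40 proteins, averaged 22.2 ± 3.76 CPM with 8p and 62.3 ± 8.95 CPM in controls (log2 fold change −1.48, SE 0.13, adjusted p = 3.38e-08). HYOU1 (GRP170), a large HSP70-like protein that acts as nucleotide exchange factor for BiP, averaged 44.7 ± 2.92 CPM with 8p and 112 ± 9.23 CPM in controls (log2 fold change −1.32, SE 0.08, adjusted p = 1.01e-09). These 3 genes fell 3.74-fold, 2.79-fold and 2.503-fold, and none of their treated values reached a control value.

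The J-domain cofactors of BiP differed among themselves. DNAJB11 (ERdj3) and DNAJC10 (ERdj5, which also reduces disulfides) fell by 0.54 and 0.55 on the log2 scale, and DNAJB11 averaged 38.1 ± 0.574 CPM with 8p and 55.3 ± 1.12 CPM in controls. TBCCD1 overlaps DNAJB11 on the other strand with 22.7% of its counts with 8p and 32.5% in controls. DNAJC3 (p58IPK) averaged 66.01 ± 5.97 CPM with 8p and 64.8 ± 3.04 CPM in controls and did not pass (log2 fold change 0.03, 95% interval −0.15 to 0.21, adjusted p = 0.763), and its estimate was −0.08 without 8p replicate 2, −0.03 without control replicate 1 and, called higher, 0.22 with upper quartile scaling (adjusted p = 0.0265). DNAJB9 (ERdj4), a repressor of IRE1, had 13.4, 12.6 and 13.9 CPM in the 8p libraries, against 9.61, 9.44 and 11.4 CPM in the controls and was called higher (log2 fold change 0.39, SE 0.13, adjusted p = 0.0152). That call was lost without 8p replicate 3 (adjusted p = 0.0555), control replicate 1 (0.0826) or control replicate 2 (0.0823), and when genes with low counts were kept (0.127). THAP5 and PNPLA8 overlap DNAJB9 on the other strand, with 131% and 243% of its counts in the 8p libraries and 216% and 170% in controls, and without the strand setting their reads cannot be told apart from its own. CRELD2, a secreted stress-induced factor, averaged 22.2 ± 2.48 CPM with 8p and 25.5 ± 1.59 CPM in controls and did not pass (log2 fold change −0.20, 95% interval −0.43 to 0.03, adjusted p = 0.107). It was called lower under 2 of the 15 alternatives, among them without 8p replicate 2 (adjusted p = 0.0123). Its overlapping partner ALG12 held 44.3% of its counts with 8p and 33.8% in controls.

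The lectin chaperones of the calnexin cycle, which bind glycoproteins that still carry a glucose, are a soluble and a membrane protein. CALR (calreticulin; ENSG00000179218, GRCh38 chromosome 19, 12938578 to 12944489, plus strand), the soluble lectin of the lumen, had 340.3, 324 and 330.1 CPM in the 8p libraries, against 1372, 1445 and 1367 CPM in the controls. All treated libraries were far below all controls, a 4.21-fold fall (log2 fold change −2.07, SE 0.07, adjusted p = 9.55e-13). CANX (calnexin), its counterpart in the ER membrane, had 752, 728 and 709 CPM in the 8p libraries, against 803, 758 and 738 CPM in the controls, ranges that overlapped (log2 fold change −0.07, 95% interval −0.22 to 0.08, adjusted p = 0.360); it was called lower when genes with low counts were kept (−0.19, adjusted p = 0.0289). The ratio of CALR to CANX counts was 0.453, 0.445 and 0.466 in the 8p libraries, against 1.71, 1.91 and 1.85 in the controls. UGGT1, the glucosyltransferase that sends misfolded glycoproteins back into the cycle, fell by 0.46 on the log2 scale (adjusted p = 0.000136). CALR supplied 7.00% ± 0.194 of the counts of the 36 genes with 8p and 18.7% ± 0.579 in controls (SD, n = 3). The 36 genes together took 0.463% to 0.492% of all counts with 8p and 0.729% to 0.747% in controls.

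Of the 6 genes of disulfide exchange and oxidation 4 fell, 1 rose and 1 did not pass, beside 36.9% and 37.9% of all genes tested that fell and rose. PDIA4 (ERp72), a protein disulfide isomerase, had 44.4, 41.5 and 45.3 CPM in the 8p libraries, against 123, 124 and 121 CPM in the controls, a 2.81-fold fall between groups that did not overlap (log2 fold change −1.49, SE 0.07, adjusted p = 4.45e-11). PDIA6 (P5), an isomerase that also acts on IRE1, averaged 71.2 ± 5.65 CPM with 8p and 174 ± 4.198 CPM in controls (log2 fold change −1.29, SE 0.07, adjusted p = 3.09e-10), with the overlapping ATP6V1C2 at 16.4% of its counts with 8p and 11.4% in controls. PDIA3 (ERp57), the isomerase that works with calnexin and calreticulin, averaged 221 ± 9.87 CPM with 8p and 403 ± 23.9 CPM in controls (log2 fold change −0.87, SE 0.07, adjusted p = 1.59e-08); its processed copies PDIA3P1 and PDIA3P2 held 5.05% of its counts. P4HB (PDI), the founding isomerase and a subunit of prolyl 4-hydroxylase, did not pass. It measured 955, 963 and 958 CPM in the 8p libraries, against 1003, 1052 and 909 CPM in the controls, with the treated values inside the control range (log2 fold change −0.04, 95% interval −0.20 to 0.11, adjusted p = 0.602). The ratio of P4HB to PDIA6 counts was 14.2, 12.4 and 13.96 in the 8p libraries, against 5.87, 6.12 and 5.09 in the controls.

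Of the oxidases that recharge these isomerases, ERO1B rose and ERO1A was called lower. ERO1B (ERO1 beta; ENSG00000086619, GRCh38 chromosome 1, 236215555 to 236281985, minus strand), best known from secretory cells such as pancreatic beta cells, had 9.25, 8.93 and 10.1 CPM in the 8p libraries, against 1.35, 1.59 and 2.12 CPM in the controls. It rose 5.62-fold (log2 fold change 2.49, SE 0.21, adjusted p = 2.84e-08), the largest rise of the 36 genes, and ranked 35 of 36 per kilobase with 8p and 36 in controls. GPR137B, which overlaps ERO1B on the other strand, held 51.03% of its counts with 8p and 283% in controls and did not pass itself (0.05 on the log2 scale, adjusted p = 0.835). ERO1A, the widely expressed oxidase, measured 63.6, 57.2 and 70.4 CPM in the 8p libraries, against 73.1, 72.2 and 77.2 CPM in the controls and was called lower (log2 fold change −0.22, SE 0.08, adjusted p = 0.0286), a call lost with upper quartile scaling (adjusted p = 0.751), with a filter of at least 1 CPM in 3 libraries (adjusted p = 0.0572) and without 8p replicate 2 (adjusted p = 0.0554). ERO1A counts still exceeded those of ERO1B in every library, with a ratio of ERO1B to ERO1A of 0.145, 0.156 and 0.143 in the 8p libraries, against 0.0184, 0.0220 and 0.0275 in the controls.

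In the translocon 4 of 5 genes fell, beside 36.9% of all genes tested. SEC61A1, the channel itself, averaged 191 ± 4.16 CPM with 8p and 288 ± 11.001 CPM in controls (log2 fold change −0.59, SE 0.06, adjusted p = 5.22e-07), and SEC61B and SEC61G, its small subunits, fell by 0.66 and 1.18 on the log2 scale. SEC61G had 26.4, 28.6 and 25.9 CPM in the 8p libraries, against 63.2, 55.05 and 65.2 CPM in the controls, with no overlap (log2 fold change −1.18, SE 0.09, adjusted p = 1.10e-08). RUVBL1 overlaps SEC61A1 on the other strand and held 8.45% of its counts with 8p and 46.03% in controls, and MGLL, also on the other strand, held 15.5% with 8p and 0.332% in controls. Without the strand setting the reads of both cannot be told apart from those of SEC61A1. SSR1 and SSR2 are subunits of the translocon-associated protein complex, which helps some signal sequences enter. SSR1 measured 244, 238 and 247 CPM in the 8p libraries, against 259, 239 and 254 CPM in the controls and did not pass (log2 fold change −0.04, 95% interval −0.18 to 0.09, adjusted p = 0.554), while SSR2 was called lower by 0.24 on the log2 scale (adjusted p = 0.00776), a call lost with upper quartile scaling (adjusted p = 0.504).

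In ERAD, of 8 genes 3 rose (37.5%), 1 fell (12.5%) and 4 did not pass, beside 37.9% and 36.9% of all genes tested that rose and fell, so the share that rose was that of the background. The 8 supplied 12.8% ± 0.226 of the counts of the 36 genes with 8p and 6.67% ± 0.0656 in controls. EDEM1 alone supplied 4.61% with 8p and 1.16% in controls. The 36 genes took less of all counts with 8p (0.463% to 0.492%, against 0.729% to 0.747%). A larger share of them is therefore not by itself a rise. EDEM1 (ENSG00000134109, GRCh38 chromosome 3, 5187646 to 5219957, plus strand), which trims mannose from misfolded glycoproteins and steers them to degradation, had 216, 227 and 211 CPM in the 8p libraries, against 89.04, 85.003 and 85.6 CPM in the controls. It rose 2.52-fold (log2 fold change 1.33, SE 0.07, adjusted p = 5.88e-11). EDEM2, which makes the first mannose cut, averaged 33.98 ± 2.53 CPM with 8p and 35.2 ± 2.55 CPM in controls (log2 fold change −0.05, 95% interval −0.25 to 0.15, adjusted p = 0.628). The ratio of EDEM1 to EDEM2 counts was 6.37, 6.22 and 6.71 in the 8p libraries, against 2.67, 2.23 and 2.501 in the controls.

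SYVN1 (HRD1), the ubiquitin ligase of the ERAD channel, and SEL1L, its adaptor, were called slightly higher. SEL1L had 95.8, 88.3 and 93.2 CPM in the 8p libraries, against 76.6, 74.9 and 79.99 CPM in the controls (log2 fold change 0.26, SE 0.07, adjusted p = 0.00378). SYVN1 had 51.7, 51.1 and 61.1 CPM in the 8p libraries, against 44.7, 50.2 and 40.3 CPM in the controls (log2 fold change 0.28, SE 0.10, adjusted p = 0.0198), and its call was lost without 8p replicate 3 (log2 fold change 0.17, adjusted p = 0.163), control replicate 1 (0.24, adjusted p = 0.0844) or control replicate 3 (0.18, adjusted p = 0.120). Both calls were lost when genes with low counts were kept. FAU overlaps SYVN1 on the same strand with 917% of its counts with 8p and 1185% in controls, and MRPL49 on the other strand with 80.5% with 8p and 183% in controls. HERPUD1, a membrane scaffold of the SYVN1 complex, had 62.8, 59.6 and 60.99 CPM in the 8p libraries, against 62.4, 58.6 and 65.9 CPM in the controls, which overlapped (log2 fold change −0.03, 95% interval −0.19 to 0.14, adjusted p = 0.752).

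The Derlins, membrane proteins of the ERAD channel, were mixed. DERL1 fell by 0.47 on the log2 scale (adjusted p = 2.68e-05), with 114 ± 9.22 CPM with 8p and 158 ± 1.46 CPM in controls; the overlapping TBC1D31 held 15.4% of its counts with 8p and 24.6% in controls. DERL2 measured 29.1 ± 1.15 CPM with 8p and 28.3 ± 2.45 CPM in controls (log2 fold change 0.04, 95% interval −0.17 to 0.24, adjusted p = 0.738), and its estimate was −0.06 without control replicate 2 and −0.01 without 8p replicate 3; with upper quartile scaling it was called higher (0.22, adjusted p = 0.0448). MIS12 overlaps it on the other strand with 60.98% of its counts with 8p and 79.4% in controls. DERL3, the third Derlin, averaged 2.85 ± 0.932 CPM with 8p and 3.95 ± 0.437 CPM in controls (log2 fold change −0.46, 95% interval −1.02 to 0.10, adjusted p = 0.122). It was called lower under 2 of the 15 alternatives, among them without 8p replicate 2 (log2 fold change −0.74, adjusted p = 0.0180). SMARCB1 overlaps it on the other strand with 2486% of its counts with 8p and 4438% in controls.

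Of the 4 genes for UPR sensors and regulators 2 rose and 2 fell, where 74.7% of all genes tested passed in either direction. XBP1 (ENSG00000100219, GRCh38 chromosome 22, 28794555 to 28800597, minus strand) had 36.7, 35.1 and 33.3 CPM in the 8p libraries, against 383, 379 and 424 CPM in the controls. It fell 11.3-fold (log2 fold change −3.50, SE 0.08, adjusted p = 1.92e-14), the fall that ranked 141 among the 13822 genes tested. ERN1 (IRE1; ENSG00000178607, GRCh38 chromosome 17, 64039142 to 64130819, minus strand), the kinase and RNase that splices XBP1, had 27.1, 32.7 and 26.5 CPM in the 8p libraries, against 9.82, 11.7 and 9.14 CPM in the controls and rose 2.81-fold (log2 fold change 1.49, SE 0.13, adjusted p = 4.33e-08). ERN1 was higher and XBP1 lower, and the ratio of ERN1 to XBP1 counts was 0.737, 0.930 and 0.797 in the 8p libraries, against 0.0256, 0.0310 and 0.0216 in the controls, 31.7-fold higher with 8p. ATF6, the sensor that is cut in the Golgi to release a transcription factor, was called slightly lower (log2 fold change −0.27, SE 0.08, adjusted p = 0.00497), with 44.6, 44.5 and 43.7 CPM in the 8p libraries, against 52.4, 53.04 and 54.5 CPM in the controls. With upper quartile scaling ATF6 did not pass (adjusted p = 0.343). The ratio of ERN1 to ATF6 counts was 0.607, 0.735 and 0.606 in the 8p libraries, against 0.187, 0.221 and 0.168 in the controls. PPP1R15A, which is known to be induced through PERK and ATF4, had 79.1, 76.5 and 71.6 CPM in the 8p libraries, against 34.9, 33.6 and 34.3 CPM in the controls and rose 2.21-fold (log2 fold change 1.14, SE 0.08, adjusted p = 2.48e-09).

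**Figure D3:**
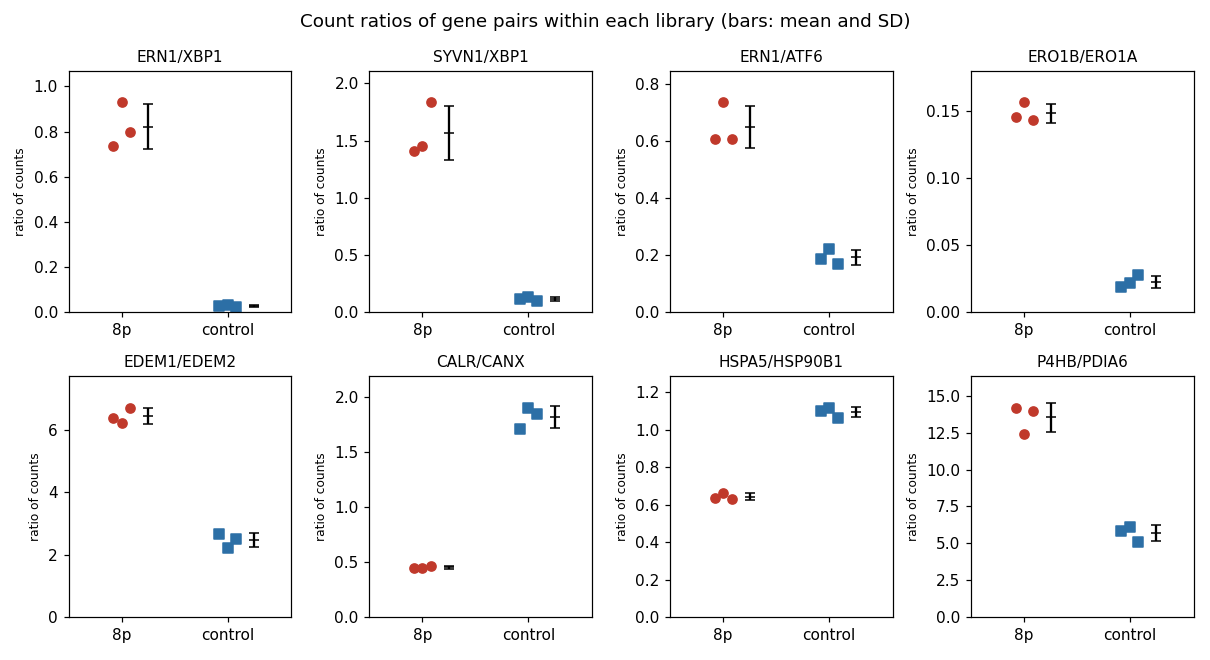
Ratio of the counts of 2 genes within each library for 8 of the pairs compared, with the mean and SD of 3 libraries beside the points; each axis starts at 0. In every panel the 8p and control libraries were separate, as for ERN1 over XBP1 at 0.822 ± 0.0986 with 8p and 0.0261 ± 0.00473 in controls.

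In all, 13 such ratios were compared, chosen with the levels known, and their treated and control values did not overlap in any of the 13. Single genes did not overlap between groups for 77% of all genes tested. Because the pairs were chosen with the levels known, the count of 13 is a description only. An exact two-sided permutation test gave p = 0.1 for each, the smallest that 3 against 3 libraries allow, and 0.1 after adjustment over the 13. The smallest difference as a fold was the 1.43-fold one of DERL2 over DERL1, at 0.257 ± 0.0271 with 8p and 0.180 ± 0.0146 in controls (SD, n = 3).

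Per kilobase of gene length, which allows genes to be set beside each other, the order of the 36 genes changed. With 8p the highest were P4HB at 181 ± 0.817 CPM per kilobase, CALR at 122 ± 2.996 and CANX at 117 ± 3.46 (SD, n = 3), the last pair differing by less than the sum of their SDs. In controls CALR led at 514 ± 16.2 CPM per kilobase, followed by P4HB at 186 ± 13.7 and HSPA5 at 151 ± 8.27. XBP1 held rank 21 of 36 with 8p, at 11.6 ± 0.575 CPM per kilobase, against rank 4 in controls, at 131 ± 8.26. EDEM1 held rank 8 with 8p and 20 in controls, and PPP1R15A rank 11 with 8p and 23 in controls. HSPA5 and PDIA3 lay side by side with 8p, at 51.9 ± 4.65 and 52.1 ± 2.33 CPM per kilobase, and did not differ beyond their spread. The length is that of the deposited table, and DNAJC10, at 21835 bases, ranked 34 with 8p and 33 in controls on this scale.

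**Figure D4:**
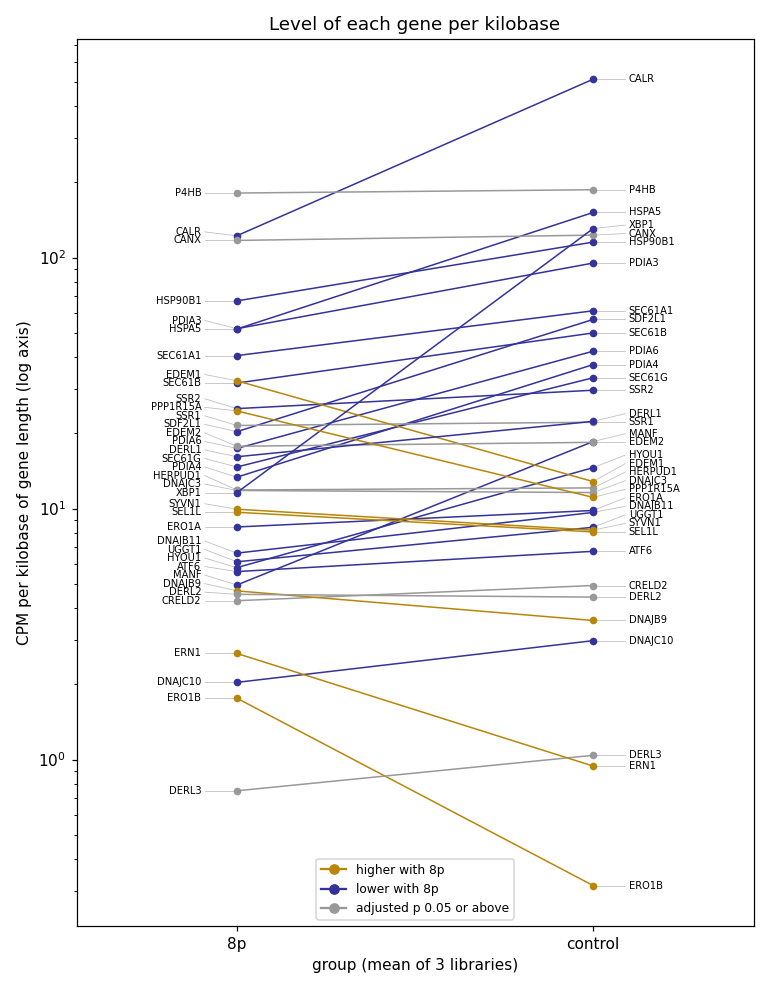
Mean level of each gene in CPM per kilobase of gene length, 8p on the left and control on the right, on a log axis; names are spread apart where points crowd. The steepest lines that drop towards 8p belong to XBP1 and CALR, and the steepest that climb to ERO1B, ERN1 and EDEM1.

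Genes with an ERSE or ERSE-II in the promoter did not move together. Of the 9, 6 fell (HSPA5, CALR, HSP90B1, PDIA6, HYOU1 and SDF2L1), 1 rose (ERO1B) and 2 did not pass (CRELD2 and HERPUD1), with a median log2 fold change of −1.29. The other 24 with a promoter had 12 that fell, 6 that rose and 6 that did not pass, with a median of −0.15. XBP1, with a larger fall than any of the 9, and MANF, with a larger fall than all of them but CALR, held neither form within their windows. Among all genes tested, 23 had either form in the promoter, these 9 among them, and 13 of the 23 fell (56.5%) and 4 rose. The 9 supplied 6 of those 13 falls and 1 of the 4 rises, so the 23 are not a separate set. Over all genes tested 36.9% fell and 37.9% rose. The difference between genes with and without the element was not tested.

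Replicates of the 36 genes were close. The coefficient of variation over 3 libraries had a median of 5.57% with 8p and 6.08% in controls and was under 10% for 28 genes with 8p and for 30 in controls. The widest were DERL3 with 8p, at 32.7%, and ERO1B in controls, at 23.5%. Of the libraries that stood apart, 8p replicate 2 was the highest treated library for 16 of the 36 genes and the lowest for 14, and control replicate 3 was the highest control for 18 and the lowest for 9. Without 8p replicate 2, 21 of the 36 genes fell and 7 rose, where 37.2% of all genes tested fell and 5303 of 14354 rose. Without control replicate 3, 20 fell and 6 rose, where 35.4% of all genes tested fell and 5103 of 14276 rose.

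In each of 8 lists of other ER and chaperone genes, falls outnumbered rises, where 36.9% of all genes tested fell and 37.9% rose. The margin was smallest for ER calcium genes, 7 against 6, and the other UPR list had 38.9% lower, close to the background. Of 19 genes for targeting to the ER and signal cleavage 13 fell and 4 rose (median log2 fold change −0.38), with SRPRB, a subunit of the signal recognition particle receptor, at −1.25 and SEC61A2, the second channel gene, at 1.81. NUDT5 overlaps SEC61A2 on the other strand with 479.6% of its counts with 8p and 2593% in controls. Of 27 tested other folding and redox proteins 14 fell and 7 rose (median −0.29). PDIA5, a further isomerase, averaged 10.7 ± 1.69 CPM with 8p and 46.2 ± 2.701 CPM in controls (−2.11 on the log2 scale), and the peroxiredoxin PRDX4, which uses ER peroxide to form disulfides, 28.1 ± 2.33 CPM with 8p and 109.7 ± 7.305 CPM in controls (−1.97). SEC22A overlaps PDIA5 on the same strand, with 85.3% of its counts with 8p and 21.6% in controls.

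Of 11 tested subunits of the oligosaccharyltransferase, which attaches N-glycans, 8 fell and 1 rose (median −0.74). DAD1 fell by 1.21 on the log2 scale, and KRTCAP2 rose by 1.64. Of 19 other ERAD genes 10 fell and 7 rose (median −0.24), and VCP, the ATPase that pulls substrates out of the membrane, and its cofactor UFD1 fell by 1.23 and 1.05. In ER export, 12 of 19 tested genes fell and 2 rose (median −0.47), among them SEC24D, a COPII cargo adaptor, at −1.27, and PREB, the activator of the COPII GTPase, at −1.10. KDELR2, a receptor that returns chaperones such as BiP to the ER, fell by 0.60 (adjusted p = 2.19e-06); DAGLB overlaps it on the same strand with 138% of its counts with 8p and 53.7% in controls.

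Of 15 tested ER calcium genes 7 fell and 6 rose (median −0.07), with the luminal calcium binder RCN1 at −1.87 and the calcium pump ATP2A1 at 1.22, for which the overlapping RABEP2 held 1457% of its counts with 8p and 1553% in controls and ATP2A1-AS1 12% with 8p and 64.4% in controls. Of 18 tested genes of the other UPR sensors and the PERK branch 7 fell and 4 rose (median −0.16). EIF2AK3 (PERK) averaged 12.2 ± 1.25 CPM with 8p and 9.49 ± 0.136 CPM in controls (log2 fold change 0.36, SE 0.14, adjusted p = 0.0244). ATF4, the transcription factor translated when eIF2α is phosphorylated, averaged 457 ± 27.2 CPM with 8p and 794 ± 31.8 CPM in controls (log2 fold change −0.79, SE 0.07, adjusted p = 5.97e-08). CHAC1, which degrades glutathione, averaged 1.15 ± 0.842 CPM with 8p and 16.3 ± 1.22 CPM in controls (log2 fold change −3.82), and NUPR1, a stress-induced chromatin protein, averaged 7.91 ± 0.281 CPM with 8p and 0.251 ± 0.0570 CPM in controls (4.94). DDIT3 (CHOP), a mediator of ER stress death, averaged 12.98 ± 1.56 CPM with 8p and 6.02 ± 0.542 CPM in controls (log2 fold change 1.11, SE 0.15, adjusted p = 7.90e-06), but MARS and MBD6 overlap it on the other strand with 763% and 817% of its counts with 8p and 3798% and 674% in controls.

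The cytosolic chaperones, listed for comparison, had 10 of 12 that fell and 1 that rose, with a median of −1.46. HSP90AB1, a cytosolic HSP90, averaged 732 ± 34.6 CPM with 8p and 3720.1 ± 124 CPM in controls (−2.35), and the small heat shock protein HSPB1 35.9 ± 2.25 CPM with 8p and 217 ± 22.1 CPM in controls (−2.59). Over the 140 tested genes of the 8 lists 81 fell (57.9%) and 32 rose (22.9%), beside 36.9% and 37.9% of all genes tested, and their median of −0.36 equalled that of the 36 genes to 2 decimals. The 36 genes were not tested against these lists.

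**Figure D5:**
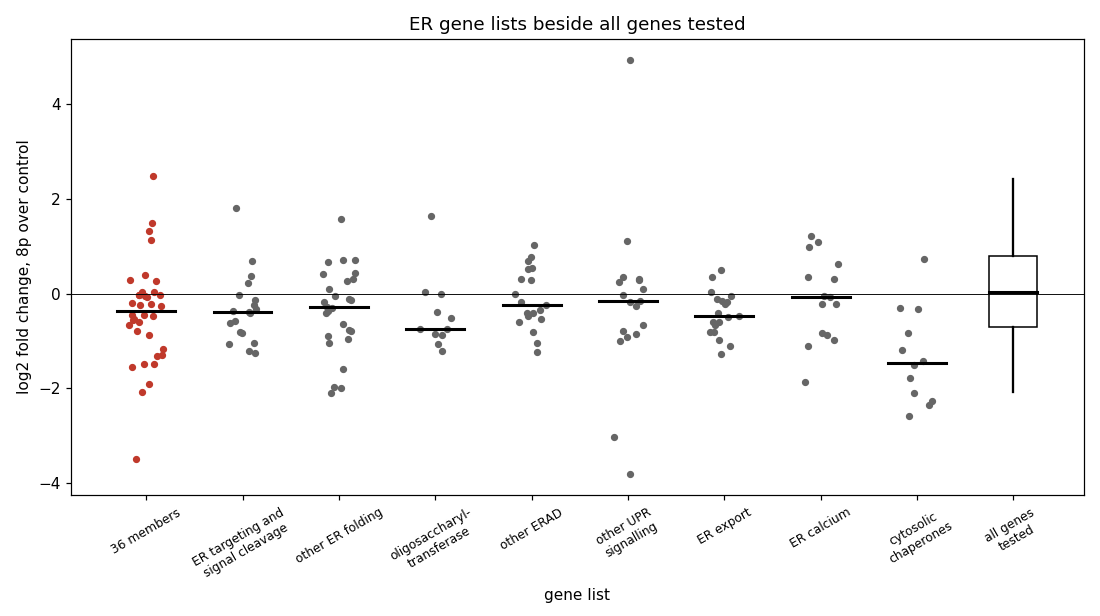
Log2 fold change, 8p over control, of each tested gene in the 36 genes (left) and in 8 lists of other ER and chaperone genes, with the list medians as bars; the box at the right gives the 25th to 75th percentiles of all genes tested (−0.70 to 0.80) and its lines the 5th and 95th (−2.08 and 2.41). Medians ran from −1.46 for cytosolic chaperones to −0.07 for ER calcium genes.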

How the data were processed

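The authors' deposited table holds raw read counts per gene for 6 libraries, whole numbers with no normalization, and each gene's symbol, position and length. Per the submitters' processing notes, the build was hg38 and the tools included edgeR 3.22.5, DESeq2 1.20.0, featureCounts 1.5.0-p3 and HISAT2 2.0.5; the strand setting and the choice between poly(A) capture and rRNA removal are not given in the sources used here. Counts were tested in R 4.3.3 with edgeR 4.0.16 (TMM factors, filterByExpr, quasi-likelihood F test, group as the only term), with Benjamini-Hochberg adjustment over 13822 genes. CPM are scaled to the TMM-adjusted library size and given as mean ± SD of 3 libraries, and the SE is the log2 fold change divided by the square root of F. The 36 genes, the 8 other lists and the pairs for ratios were chosen with earlier results of these data known. The named genes were the largest rise or fall in each role, some fixed UPR genes, and the largest 2 changes of each other list whose log2 CPM averaged 1 or more. Overlapping genes are reported where they held at least 10% of a described gene's counts in either group. On simulated counts (13001 genes tested), 50.8% of changes of 0.5 on the log2 scale, 78.7% of changes of 1 and 96.7% of changes of 2 were recovered, with 8 false calls among 12820. Only 59, 61 and 61 genes were changed by these amounts, up or down at random, where 74.7% of genes were called in the data. The simulated rates hold for that setting and do not describe the real comparison. The submitters describe the 3 replicates of a group as independent. Promoters came from RefSeq (GRCh38.p14), with 33 of 36 genes matched by symbol and positions counted from RefSeq's start. A single promoter was kept per symbol, the lowest in position, so any other start of a gene was not scanned. The windows shown for PDIA6, HSP90B1 and CRELD2 lay within those genes' counted spans, as did the UPR element core of DNAJC10. Alternatives were DESeq2 1.42.0, limma-voom (limma 3.58.1), other scalings and filters, a replicate block, each library left out, a stricter threshold and counts without mitochondrially encoded genes.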

Additional observations from a re-analysis of the deposited data

How the results depend on the processing

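Of the 36 genes, 21 kept their direction and their side of the threshold under all 15 alternatives. The number called lower ran from 17 with upper quartile scaling to 23 with no filter on low counts, and the number called higher from 4 with no filter to 9 with upper quartile scaling, against 20 and 7. Of all genes tested, 30.8% were lower with upper quartile scaling and 22% with no filter, against 36.9%. Those higher were 6240 of 13822 and 5397 of 26595, against 5232 of 13822. Upper quartile scaling moved the median of all genes by 0.19 on the log2 scale. Keeping all genes with a count shifted the 13822 genes by a median of −0.12. The median over the 26595 genes then tested was 0.14, against 0.03. Relative to such shifts, estimates near 0 changed sign without passing the threshold: with upper quartile scaling CANX was 0.12, P4HB 0.14, SSR1 0.14, HERPUD1 0.16 and EDEM2 0.14; with no filter DNAJC3 was −0.09 and DERL2 −0.08; and HERPUD1 was 0.01 with at least 1 CPM in 3 libraries. Over the fits that left out 1 library each, DNAJC3 ran from −0.08 to 0.06 and DERL2 from −0.06 to 0.05. Between 25 and 28 of the 36 were called with 1 library left out, 20 to 21 lower and 5 to 7 higher. In those fits 9871 to 10640 of the 14268 to 14392 genes tested were called. The share lower was 34.3% to 37.2%, and 4963 to 5303 genes were higher. With the replicate number as a block, 20 fell and 7 rose as before, where 36.3% of all genes tested fell and 5076 of 13822 rose. Same-numbered libraries did not deviate together (correlations −0.0432 to −0.00710), so the numbers were not taken as pairs, and the block moved the count over all genes to 10090, against 10330. DERL3 and ERO1B had the widest intervals of the 36, and DERL3 had 28 to 62 counts a library with 8p and 75 to 92 in controls.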
